A study of Homo sapiens with 8 samples.

Results

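The gene cluster at 16p11.2 was followed as 40 neighbouring protein-coding genes of chromosome 16, from SPN to RNF40, in a pooled knockout screen of PC9 cells. Members were the rows of the counts table that carried the names of a list of neighbours, and they made up 40 of the 18052 gene names in the table. The list was selected on position with L2FC values of these libraries in view, and which of those values were used is not recorded, so that counts and levels of the members describe them and support nothing further. Each member was targeted by 4 guides. Of the 160 guides, 147 were kept after guides with low counts were removed, and 39 members kept the 2 guides needed for a gene value, out of 17761 genes tested. The remaining member, the glycolytic aldolase ALDOA, kept 1 guide. Between the outermost members, the table held 8 further genes, which were PAGR1, TAOK2, C16orf92, PPP4C, MAPK3, CD2BP2, SEPT1 and C16orf93.

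PC9 is a non-small cell lung cancer line whose growth depends on a mutant EGFR, and the cells used here expressed Cas9 and carried the genome-wide TKOv3 guide library. Erlotinib is a reversible EGFR inhibitor and osimertinib an irreversible one. The 4 groups had 2 libraries each. Per the paper, cells were infected for each of the erlotinib, osimertinib and DMSO conditions, and each condition and T0 had 2 replicates. Whether the groups shared an infected pool is not stated there. T0 cells were harvested just before the drugs were added. Untreated cells received the solvent DMSO for 72 h and were passaged on the first day, and the other groups received 10 µM erlotinib or 0.1 µM osimertinib for 72 h. All groups had been selected with puromycin, and live cells were collected at 72 h. The 8 libraries hold no other dose of either drug.

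16p11.2 is known for recurrent deletions and duplications that change the dose of many of its genes at once and that are linked to neurodevelopmental conditions. The region packs genes of unrelated function side by side, including enzymes of lipid and nucleotide metabolism, chromatin regulators, a row of zinc finger genes, and genes used mainly by blood cells, neurons or muscle. In a knockout screen each guide marks the cells in which Cas9 has cut 1 gene, so that the share of reads of a guide follows the abundance of those cells relative to the rest of the pool.

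The libraries held between 32093833 and 39197691 reads, with medians of 445 to 549 reads per guide, and between 206 and 262 of 71090 guides had no read. Gene values are log2 fold changes (L2FC), the median over a gene's guides minus the median of 138 non-targeting guides, given ± the SD between guides with n guides. A gene was called where its adjusted p, from draws of non-targeting guides and adjusted over all 17761 genes, was below 0.05. Non-targeting guides match no site in the genome. Between T0 and 72 h without drug, the median of all genes tested was -0.17 on this scale, and cutting itself cannot be told apart from loss of a gene in that shift. Values against all targeting guides are therefore given as well. The p of a gene measures it against the spread between non-targeting guides, and spread between libraries does not enter it. Whether the 2 libraries of a group came from separate cultures after infection is not stated in the labels. The p-values of single guides, from edgeR, may therefore cover technical spread only.

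Under osimertinib, cells with knockouts in the cluster were more abundant than in untreated cells across nearly the whole interval. The median of the 39 members was 0.26 (L2FC, osimertinib vs untreated), against 0.01 for all genes tested. Above 0 lay 38 of 39 members, against 9443 of 17761 genes tested. The members called higher numbered 23, or 59.0%, against 4.71% of all genes tested, and 1 member was called lower, against 4.77%. The middle 50% of members lay between 0.19 and 0.30. The shift was a shared offset of moderate size in genes of every role.

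**Figure D1:**
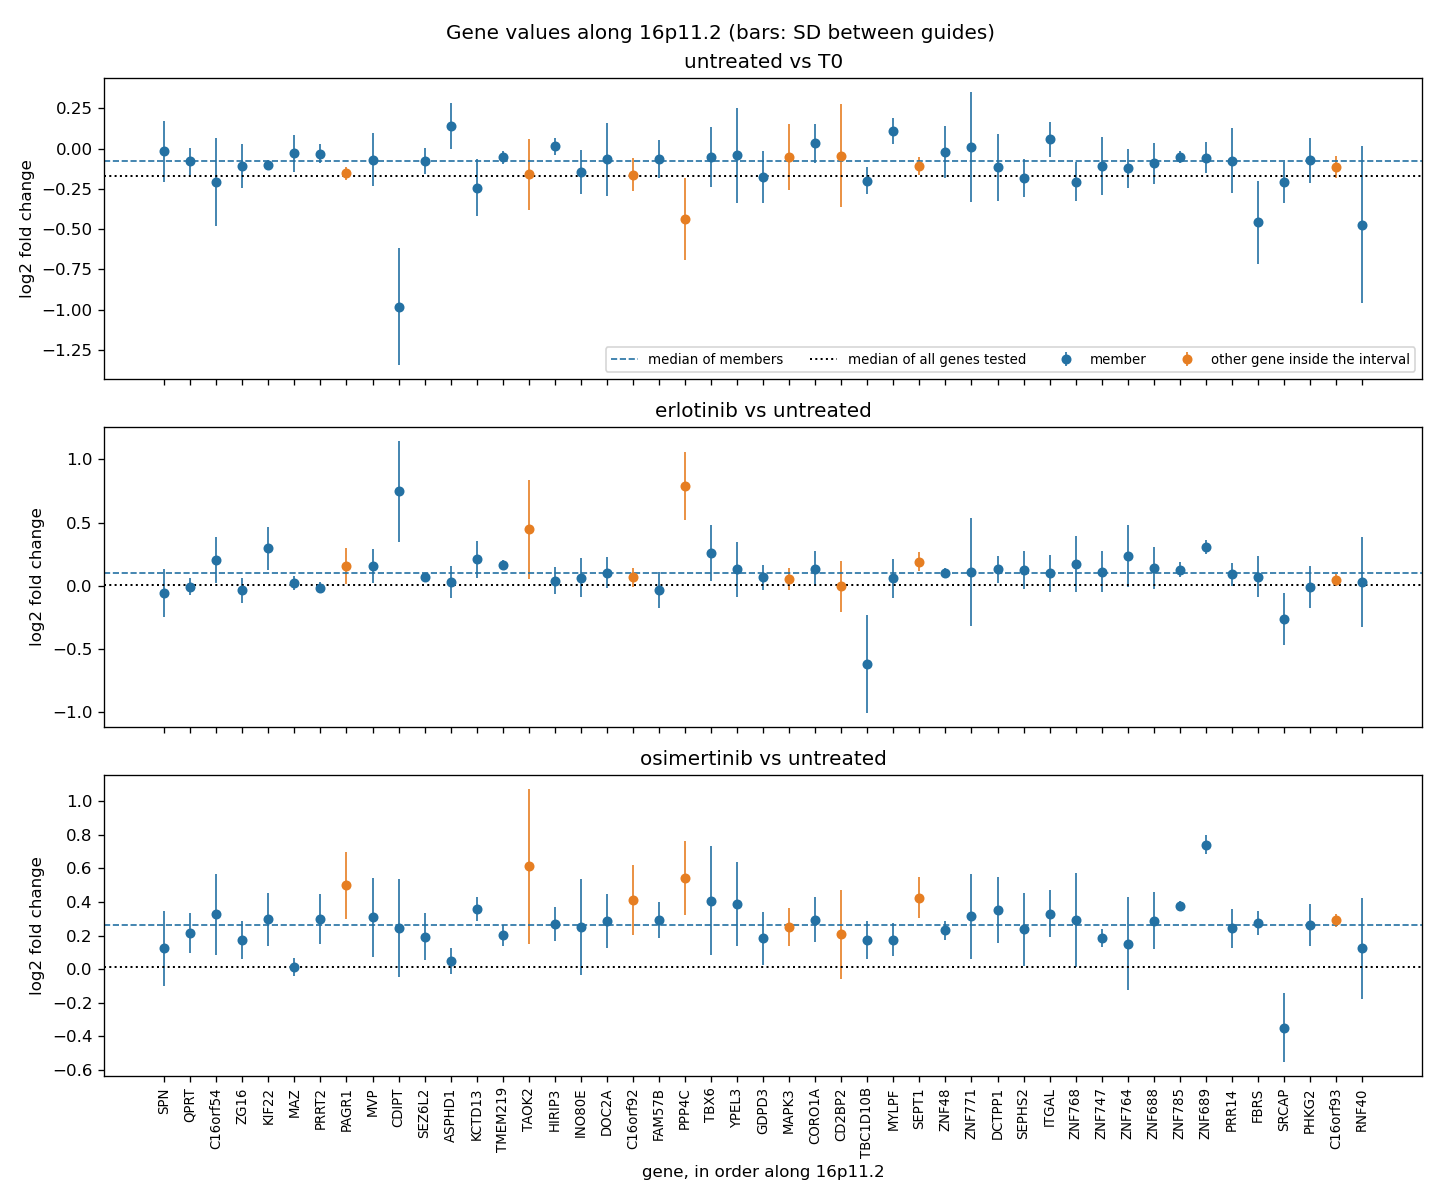
Gene values along 16p11.2 in gene order, as log2 fold change on the vertical axis, for untreated vs T0 (top), erlotinib vs untreated (middle) and osimertinib vs untreated (bottom). Points are medians over guides and bars the SD between guides, blue for members and orange for the 8 other genes of the interval. The dashed line is the median of members and the dotted line that of all genes tested. Under osimertinib 38 of 39 members lie above 0, with ZNF689 the highest at 0.74 and SRCAP the lowest at -0.35.

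The per-library values showed the same order of the groups in the members as a whole. Relative to T0, the median of the members was -0.09 and -0.06 in the untreated libraries, 0.05 and 0.05 in the erlotinib libraries, and 0.15 and 0.17 in the osimertinib libraries (log2 abundance). The groups did not overlap. The median of all genes tested lay between -0.16 and -0.14 in the same 6 libraries. Gene by gene, both osimertinib libraries lay above both untreated libraries for 35 of 39 members, against 24.7% of all genes tested, and below them for 1 member, against 25.8%.

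The shift was also seen in single guides. Of the 146 guides of the tested members, 132, or 90.4%, had a positive L2FC in osimertinib vs untreated, against 52.0% of all 67393 targeting guides. The median of the 146 guides was 0.26, against 0.01 for all targeting guides. Taken one by one with edgeR, 33 member guides, or 22.6%, were called higher and 1 was called lower, against 2.41% and 2.33% of all targeting guides.

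Enzymes of the cluster had a median of 0.24 over 8 tested genes in osimertinib vs untreated. DCTPP1, which breaks down dCTP, was called higher at 0.35 ± 0.19 (n = 4). FAM57B, of sphingolipid metabolism, was called higher at 0.29 ± 0.11 (n = 3). PHKG2, the catalytic subunit of phosphorylase kinase in liver, was called higher at 0.26 ± 0.13 (n = 4). The phosphatidylinositol synthase CDIPT and the selenophosphate synthetase SEPHS2 were both called higher at 0.24. QPRT, an enzyme of NAD synthesis, was at 0.21, the phosphodiesterase GDPD3 at 0.18 and the hydroxylase-like ASPHD1 at 0.05, and none of these 3 was called.

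Chromatin genes held both directions. Over 6 genes the median was 0.25. HIRIP3, a histone chaperone, was called higher at 0.27 ± 0.10 (n = 4), INO80E, a subunit of the INO80 remodeller, at 0.25 ± 0.29 (n = 4), and PRR14, which ties heterochromatin to the nuclear lamina, at 0.24 ± 0.12 (n = 4). FBRS, a Polycomb-associated protein, was at 0.28 and the ubiquitin ligase RNF40 at 0.12, and neither was called. SRCAP, the ATPase of a remodeller that places a variant histone in nucleosomes, was the member called lower.

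The 10 transcription factors had a median of 0.29. Of them 6, or 60.0%, were called higher, close to the 59.0% of all members, against 4.71% of all genes tested. ZNF689 stood above all others at 0.74. TBX6, a T-box factor of mesoderm development, was called higher at 0.41 ± 0.32 (n = 4), and ZNF785 at 0.38 ± 0.03 (n = 4), with 4 guides that lay close together. ZNF771, ZNF768 and ZNF688 were called higher at 0.29 to 0.31, while ZNF48 (0.23), ZNF747 (0.19) and ZNF764 (0.15) were not called. MAZ, a broadly expressed zinc finger factor, was at 0.01 ± 0.05 (n = 4), the value closest to 0 in the cluster. MAZ also had almost level counts, with 14.1 and 13.9 CPM (reads scaled to library size, median over guides) in the untreated libraries and 14.4 and 13.9 under osimertinib.

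Genes best known from blood or nerve cells were found both among those called and among those not called. The 9 tissue-restricted genes had a median of 0.29. Of them 5, or 55.6%, were called higher, close to the 59.0% of all members, against 4.71% of all genes tested. The blood cell genes ITGAL, encoding the alpha chain of a leukocyte integrin, and CORO1A, an actin-binding protein, were called higher at 0.33 ± 0.14 and 0.29 ± 0.13 (n = 4 each). PRRT2 and DOC2A, which act in neurotransmitter release, were called higher at 0.30 ± 0.15 (n = 3) and 0.29 ± 0.16 (n = 4), and so was C16orf54 at 0.33 ± 0.24 (n = 4). The neuronal surface protein SEZ6L2 (0.19), the fast muscle myosin light chain MYLPF (0.18), the goblet cell lectin ZG16 (0.17) and the leukocyte sialoglycoprotein SPN (0.12) were above 0 without being called. Expression of these genes in PC9 was not measured here.

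The other 6 genes of the cluster had a median of 0.30. YPEL3, a regulator of growth arrest, was called higher at 0.39 ± 0.25 (n = 4), KCTD13, an adaptor of a cullin ubiquitin ligase, at 0.36 ± 0.07 (n = 4), MVP, the main protein of vault particles, at 0.31 ± 0.24 (n = 4), and the kinesin KIF22 at 0.30 ± 0.16 (n = 3). The membrane receptor TMEM219 (0.20) and TBC1D10B (0.17), which switches off Rab proteins, were not called.

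**Figure D2:**
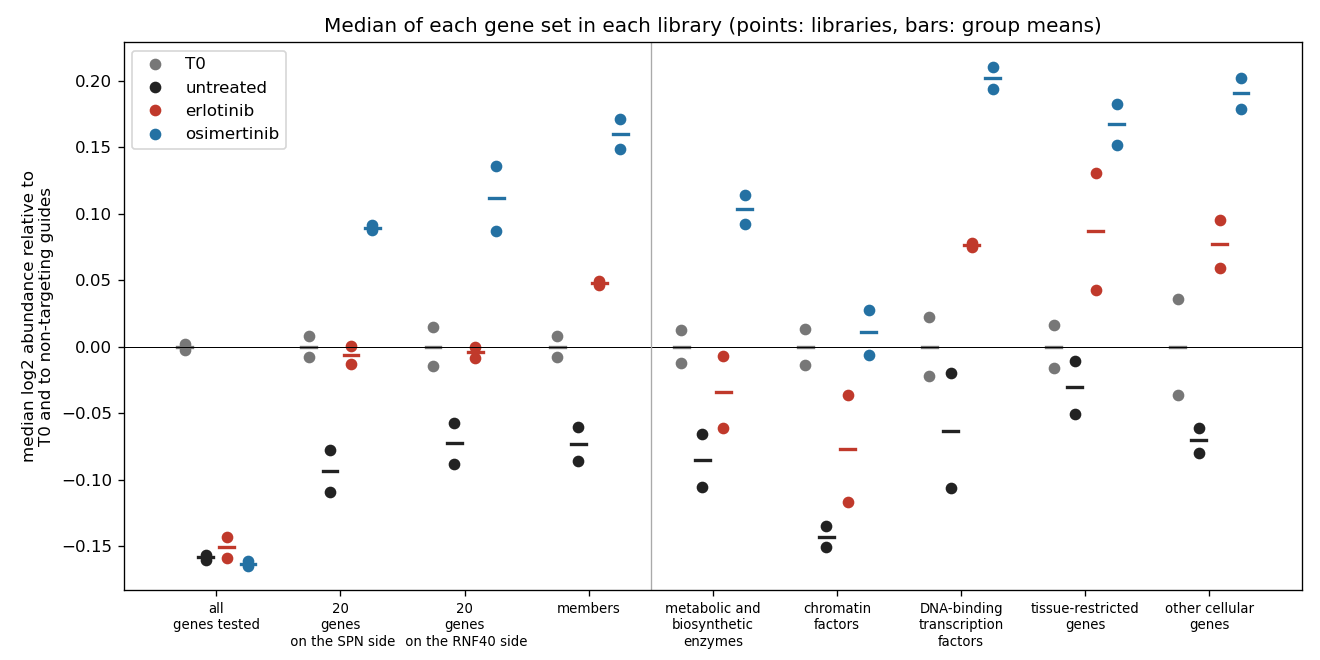
Median log2 abundance relative to T0 and to non-targeting guides (vertical axis) in each library, for all genes tested, the 20 tested genes on each side, the members, and the members by role. Points are libraries, short bars are group means, and colours mark the groups. In the members the osimertinib libraries are at 0.15 and 0.17, above erlotinib at 0.05 and untreated at -0.09 and -0.06.

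Counts of called members depended on the reference and on single libraries. Against all targeting guides the median of the members was 0.25, and ZNF689 was the member called higher, against 0.636% of all genes tested. Without 1 osimertinib library, 8 members were called higher when library 1 was left out and 7 when library 2 was, against 2.09% and 1.18% of all genes, and without untreated library 2 the number was 12, against 1.90%. The median of the members stayed between 0.21 and 0.25 when 1 library was left out.

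The offset extended beyond the listed genes. In osimertinib vs untreated, the median of all genes tested was 0.01, and 4.71% of them were called higher. Against this, the 8 other genes of the interval had a median of 0.42, with 7 called higher. The 20 nearest tested genes beyond SPN had a median of 0.20, with 6 called higher, and the 20 beyond RNF40 a median of 0.22, with 8 called higher. These flanks were chosen by position and not by value. In blocks of consecutive tested genes, laid out after the flanks had been seen, the 47 tested genes from SPN to RNF40 had the highest median of chromosome 16 at 0.28. The members had been listed with values of these libraries in view, so that this rank of the interval supports nothing further. Beyond the flanks the medians were lower, at 0.13 and 0.09 in the next 2 blocks towards the short-arm end and at 0.14 and 0.05 in the next 2 on the other side. From NETO2 outwards along the long arm they lay between -0.03 and 0.05, and they reached 0.18 at the tip of the short arm. Over all 726 tested genes of the chromosome the median was 0.07, and the medians of all chromosomes ran from -0.07 for chromosome 17 to 0.09 for chromosome 2.

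**Figure D3:**
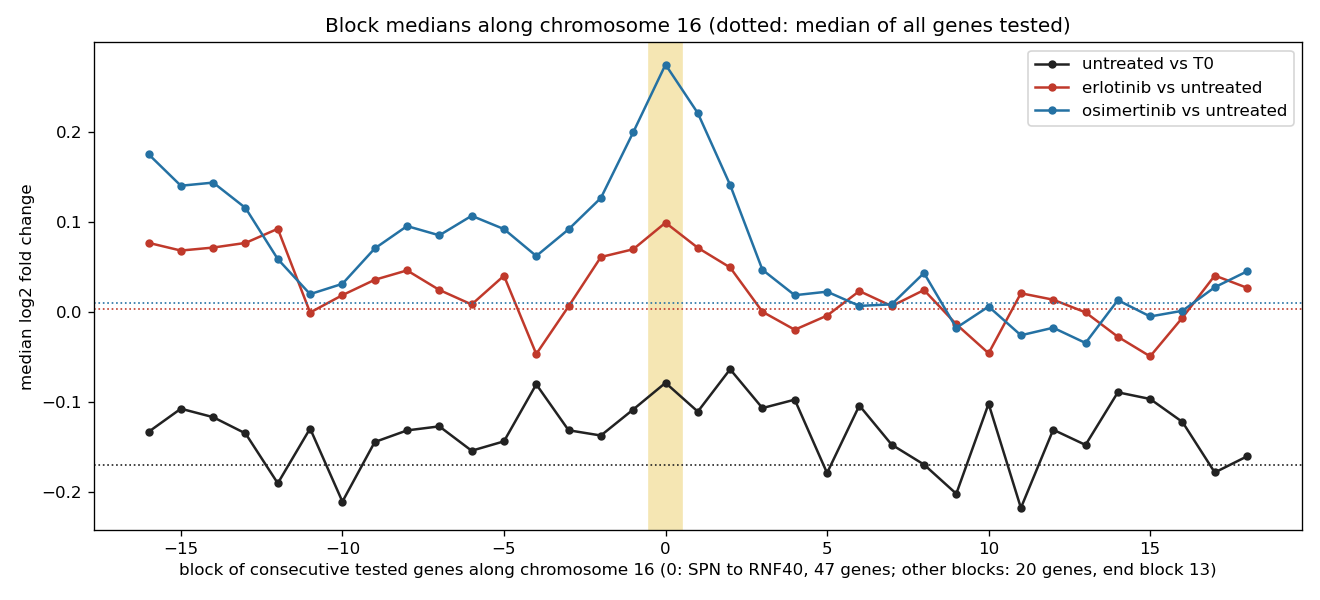
Median log2 fold change (vertical axis) of consecutive blocks of tested genes along chromosome 16, in gene order from the short-arm end on the left, for 3 comparisons. Block 0, shaded, holds the 47 tested genes from SPN to RNF40, the other blocks 20 genes and the leftmost 13, and dotted lines mark the median of all genes tested. Osimertinib vs untreated is at 0.28 in block 0, whose members were listed with values in view, and at 0.20 and 0.22 in the blocks beside it.

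Within the interval the medians varied little. When the 47 tested genes were divided in order into 4 segments, the members' medians in osimertinib vs untreated were 0.21 from SPN to ASPHD1, 0.29 from KCTD13 to GDPD3, 0.29 from MAPK3 to ZNF768 and 0.25 from ZNF747 to RNF40. Direct neighbours were about as far apart as members in general. The median absolute difference was 0.11 between the 38 pairs of members that follow each other and 0.10 over all 741 pairs, and 14 of 38 pairs lay on the same side of the members' median. In the other 5 comparisons adjacent pairs differed by 0.11 to 0.14 and all pairs by 0.10 to 0.15. Some neighbours are read in opposite directions from a shared stretch of DNA. HIRIP3 and INO80E, whose promoter windows overlap by 244 bases, were at 0.27 and 0.25, and TBC1D10B and MYLPF, whose windows overlap by 61 bases, at 0.17 and 0.18. RNF40 and C16orf93, which is not on the list, overlap by 241 bases and were further apart. RNF40 was at 0.12 and C16orf93 above 0.21, the value of CD2BP2, the lowest of the other genes of the interval.

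Under erlotinib the members lay above untreated by a smaller amount. The comparison used the same untreated libraries as that of osimertinib, so that both are given side by side only. The median of the members in erlotinib vs untreated was 0.10, against 0.00 for all genes tested. Above 0 lay 31 of 39 members, against 9169 of 17761 genes tested. The members called higher numbered 7, or 17.9%, against 6.4% of all genes tested, and 2 were called lower, against 4.73%. The genes called higher were CDIPT (0.75 ± 0.40, n = 4), ZNF689 (0.31 ± 0.06, n = 4), KIF22 (0.29 ± 0.17, n = 3), TBX6 (0.26 ± 0.22, n = 4), ZNF764 (0.24 ± 0.24, n = 4), KCTD13 (0.21 ± 0.15, n = 4) and C16orf54 (0.20 ± 0.18, n = 4). TBC1D10B and SRCAP were called lower. Without erlotinib library 2, 1 member was called higher, against 3.35% of all genes, and the median was 0.08. Against all targeting guides CDIPT was called higher, against 1.32% of all genes, and TBC1D10B lower, against 0.614%. The flanks had medians of 0.07 on either side.

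Without drug, most knockouts in the cluster stayed near their starting abundance, and CDIPT, RNF40 and FBRS were the lowest. In untreated vs T0 the median of the members was -0.07, against -0.17 for all genes tested, and 12 members, or 30.8%, were called lower, against 66.2% of all genes tested. The 12 were CDIPT, RNF40, FBRS, KCTD13, SRCAP, C16orf54, ZNF768, TBC1D10B, GDPD3, SEPHS2, INO80E and ZNF764. Apart from CDIPT, RNF40 and FBRS they lay between -0.24 and -0.12. ASPHD1 was called higher at 0.14 ± 0.14 (n = 4, adjusted p = 0.0227), against 0.169% of all genes tested. Its guides had 9.47 and 11.05 CPM at T0 and 12.7 and 13.2 in the untreated libraries. Without T0 library 1 or untreated library 2, this call was lost. Against all targeting guides CDIPT was the member called lower, against 2.87% of all genes tested.

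ALDOA, which cleaves fructose bisphosphate in glycolysis, could not be given a gene value. Its kept guide had 693 and 659 reads at T0, 397 and 396 in the untreated libraries, 501 and 546 under erlotinib and 514 and 563 under osimertinib. The untreated libraries were the lowest in this guide, with an L2FC of -0.88 in untreated vs T0 and 0.40 in osimertinib vs untreated. The other guides had between 14 and 34 reads at T0. Of the 13 glycolytic genes tested, 11 were called lower in untreated vs T0, against 66.2% of all genes tested, and the median of the 13 was -0.23, against -0.17. The lowest was ENO1 at -0.99.

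Against T0, most of the cluster under osimertinib was above its starting level. The median of the members in osimertinib vs T0 was 0.19, against -0.14 for all genes tested. The members called higher numbered 22, or 56.4%, against 1.41% of all genes tested, and 3 were called lower (CDIPT, RNF40 and SRCAP), against 43.3%. After ZNF689, the highest values were those of ITGAL (0.40 ± 0.04, n = 4), YPEL3 (0.37 ± 0.05, n = 4), ZNF771 (0.35 ± 0.09, n = 4), CORO1A (0.33 ± 0.17, n = 4) and ZNF785 (0.33 ± 0.05, n = 4). Without 1 library, between 12 and 17 members were called higher, the fewest without osimertinib library 2, against 0.845% of all genes. In erlotinib vs T0 the median was 0.04, against -0.14 for all genes, and 9 members, or 23.1%, were called higher, against 0.647%, while 3 (TBC1D10B, RNF40 and SRCAP) were called lower, against 50.4%. The 9 lay between 0.14 and 0.26. Without erlotinib library 2, 1 member was called higher, against 0.631% of all genes.

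Set directly against each other at these doses, which differ, the drugs separated part of the cluster. In erlotinib vs osimertinib the median of the members was -0.15, against 0.00 for all genes tested. Below 0 lay 34 of 39 members, against 51.5% of all genes tested. The members called lower under erlotinib numbered 7, or 17.9%, against 1.08% of all genes tested, and CDIPT was called higher, against 2.61%. The 7 were TBC1D10B, ZNF689, PRRT2, ITGAL, ZNF785, MVP and HIRIP3. Against all targeting guides TBC1D10B and ZNF689 were called lower, against 0.0619% of all genes, and CDIPT higher, against 0.462%. Both erlotinib libraries lay below both osimertinib libraries for 27 members, against 15.8% of all genes tested, and above them for 2, against 24.4%. Without 1 library, between 2 and 5 members were called lower, the fewest without osimertinib library 1, against 0.0507% of all genes.

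A member was taken to stand out where it was called and lay more than 0.3 from the median of the other tested members. By this rule ZNF689, CDIPT, TBC1D10B, SRCAP, RNF40 and FBRS stood out in at least 1 comparison, and so did TAOK2 and PPP4C among the other genes of the interval.

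ZNF689, one of the zinc finger genes, had 15.0 and 14.0 CPM at T0, 14.5 and 16.03 in the untreated libraries, 17.1 and 19.6 under erlotinib and 25.3 and 24.2 under osimertinib. The osimertinib libraries were the highest, and they did not overlap with those of any other group. In osimertinib vs untreated its L2FC was 0.74 ± 0.05 (n = 4, adjusted p = 0.00342), 0.48 above the median of the other members, and 4 of 4 guides were called on their own, at 0.69 to 0.82. The guide with the most reads had 886 and 817 reads in the untreated libraries and 1492 and 1592 under osimertinib. In osimertinib vs T0 it was 0.70 ± 0.11 (n = 4, adjusted p = 0.00058), and in erlotinib vs osimertinib -0.44 ± 0.02 (n = 4, adjusted p = 0.00737), where its distance to the other members was 0.29 and so just short of the rule. ZNF689 kept its call against all targeting guides (adjusted p = 0.0095) and in each of the 10 alternatives, with 0.69 to 0.80 in osimertinib vs untreated.

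CDIPT makes phosphatidylinositol, the lipid from which the substrates of PI3K are formed. It had 11.6 and 9.27 CPM at T0, 5.83 and 6.46 in the untreated libraries, 10.1 and 10.4 under erlotinib and 7.39 and 6.90 under osimertinib. The untreated libraries were the lowest, and the erlotinib libraries were at the level of T0. In untreated vs T0 the L2FC was -0.98 ± 0.36 (n = 4, adjusted p = 0.000301), with guides from -1.31 to -0.48, and in erlotinib vs untreated 0.75 ± 0.40 (n = 4, adjusted p = 0.00183), with guides from 0.38 to 1.34. In osimertinib vs untreated it was 0.24 ± 0.29 (n = 4, adjusted p = 0.0348), a value like that of the other members. Per the paper, a knockout that grows slowly without drug can have a positive L2FC against untreated cells with an unchanged drug response. Whether this holds for CDIPT was not tested. The drugs differed directly, at 0.46 ± 0.20 (n = 4, adjusted p = 0.00737) in erlotinib vs osimertinib. Among the 8 tested genes of phosphatidylinositol synthesis and its first phosphorylation, 6 were called lower in untreated vs T0, against 66.2% of all genes tested, from CDIPT at -0.98 and the kinase PI4KA at -0.93 upwards. CDIPT was the gene of that list called higher in erlotinib vs untreated, and PI4KB, another kinase that phosphorylates the lipid, was called lower at -0.33 ± 0.28 (n = 3).

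TBC1D10B, a GTPase-activating protein of Rab proteins in membrane traffic, had 16.1 and 16.8 CPM at T0, 16.4 and 17.9 in the untreated libraries, 19.4 and 19.1 under osimertinib and 13.9 and 13.8 under erlotinib. The erlotinib libraries were the lowest. In erlotinib vs untreated the L2FC was -0.62 ± 0.39 (n = 3, adjusted p = 0.00183), 0.72 below the median of the other members. In erlotinib vs osimertinib it was -0.93 ± 0.39 (n = 3, adjusted p = 0.00737), the lowest value of all 17761 genes in that comparison. The guides disagreed in size. A pair of guides were at -0.62 and -0.85 in erlotinib vs untreated, both called on their own, and the third was at -0.09. One of these had 746 and 796 reads in the untreated libraries and 446 and 451 under erlotinib. The gene table by limma gave -0.26 (adjusted p = 0.0703) in erlotinib vs untreated, so that this call was lost there. MYLPF, its neighbour across the shared promoter window, was at 0.06 ± 0.15 (n = 3) in the same comparison.

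**Figure D4:**
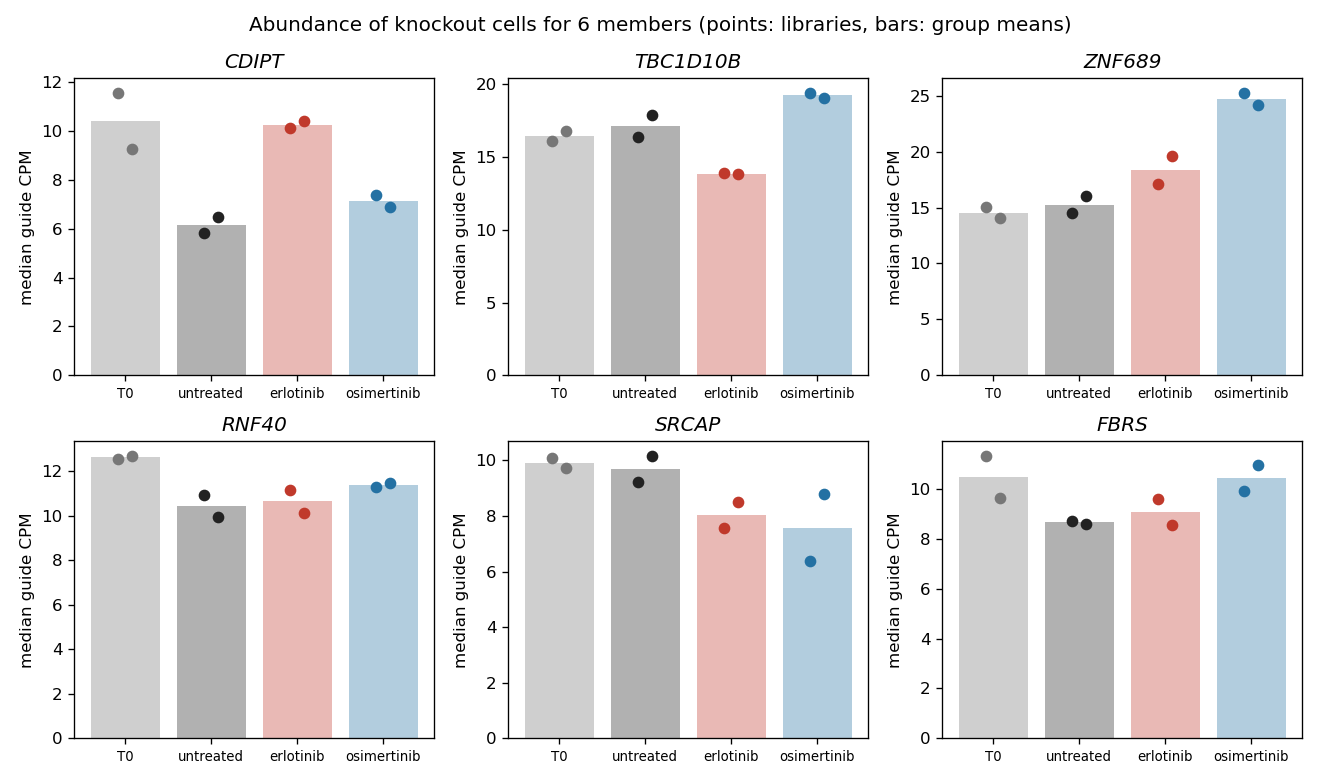
Median guide CPM (reads scaled to library size, vertical axis) of the 6 members that stood out, in each of the 4 groups. Points are libraries and bars group means. ZNF689 is highest under osimertinib (25.3 and 24.2), CDIPT lowest in untreated (5.83 and 6.46) and TBC1D10B lowest under erlotinib (13.9 and 13.8).

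SRCAP went against the cluster under both drugs, but its values rested on few guides and libraries. Its guides had 10.1 and 9.73 CPM at T0, 9.23 and 10.2 in the untreated libraries, 7.58 and 8.51 under erlotinib and 6.39 and 8.78 under osimertinib. The osimertinib libraries spread further than those of any other group. Relative to T0 and to non-targeting guides, the untreated libraries were at -0.24 and -0.16 and those of osimertinib at -0.65 and -0.26. The erlotinib libraries, at -0.39 and -0.21, overlapped with the untreated ones. The L2FC was -0.35 ± 0.20 (n = 3, adjusted p = 0.0348) in osimertinib vs untreated and -0.26 ± 0.21 (n = 3, adjusted p = 0.0194) in erlotinib vs untreated. Without osimertinib library 1 the former was -0.13 (adjusted p = 0.49), and without untreated library 2 it was -0.27 (adjusted p = 0.222), so that the call was lost. The latter call did not hold when erlotinib library 1 was left out (-0.17) or untreated library 2 (-0.20). With limma and against all targeting guides, SRCAP was called lower in neither comparison. Of the 10 alternatives, 6 kept the call in osimertinib vs untreated and 5 that in erlotinib vs untreated.

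In untreated vs T0, 9 of 9 genes of the SRCAP complex were called lower, against 66.2% of all genes tested, with a median of -0.64, from RUVBL2 at -1.11 to SRCAP itself at -0.21. In osimertinib vs untreated 4 of 9 were called lower, against 4.77% of all genes, with a median of -0.22, and these were ACTR6 (-0.46 ± 0.24, n = 4), SRCAP, RUVBL2 (-0.31 ± 0.22, n = 3) and YEATS4 (-0.28 ± 0.41, n = 4). In erlotinib vs untreated ACTR6 (-0.32 ± 0.18, n = 4) and SRCAP were called lower, against 4.73% of all genes, and ACTL6A (0.40 ± 0.40, n = 3) higher, against 6.4%. SRCAP, listed with values in view, is itself among the genes counted. These shares are therefore a description and say nothing further about the complex. INO80E belongs to the INO80 complex, whose list shares RUVBL1, RUVBL2 and ACTL6A with that of the SRCAP complex. The INO80 complex had 12 of 15 genes called lower in untreated vs T0, against 66.2%, and a median of -0.39. In osimertinib vs untreated it had 4 called higher, against 4.71% of all genes, and 1 lower, against 4.77%, with a median of 0.14. The gene called lower was the shared RUVBL2, so that the counts of the lists are not separate.

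RNF40 forms with RNF20 the ligase that attaches ubiquitin to histone H2B. It had 12.6 and 12.7 CPM at T0, 10.9 and 9.95 in the untreated libraries, 11.15 and 10.1 under erlotinib and 11.3 and 11.5 under osimertinib. The T0 libraries were the highest, and the 3 later groups lay close together. The L2FC was -0.47 ± 0.49 (n = 4, adjusted p = 0.000301) in untreated vs T0, -0.45 ± 0.21 (n = 4, adjusted p = 0.000537) in erlotinib vs T0 and -0.51 ± 0.43 (n = 4, adjusted p = 0.00058) in osimertinib vs T0. Its guides ranged from -1.21 to -0.07 in untreated vs T0. Of the 5 tested genes of this modification, 4 were called lower in untreated vs T0, against 66.2% of all genes tested, among them RNF20 at -0.70 ± 0.17 (n = 4), and their medians were 0.04 in erlotinib vs untreated and -0.05 in osimertinib vs untreated. FBRS stood out in untreated vs T0, at -0.46 ± 0.26 (n = 3, adjusted p = 0.000301), with guides from -0.47 to -0.02. It had 11.3 and 9.63 CPM at T0 and 8.72 and 8.59 in the untreated libraries. Against all targeting guides neither RNF40 (adjusted p = 0.244) nor FBRS (adjusted p = 0.369) was called in untreated vs T0.

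KIF22, SEPHS2 and QPRT had the highest value of their pathway lists in osimertinib vs untreated. All members together had a median of 0.26 there and were listed with values in view. These ranks are therefore a description and say nothing about the pathways. KIF22, which moves chromosome arms in mitosis, was the highest of 11 mitotic kinesins in erlotinib vs untreated and in osimertinib vs untreated, and the one called higher in either, while the kinesins had medians of -0.04 in both. Of the 11, 9 were called lower in untreated vs T0, against 66.2% of all genes tested, and KIF22 was at -0.10 ± 0.03 (n = 3) there. SEPHS2 was the highest of 6 genes of selenoprotein synthesis in osimertinib vs untreated, where that list had a median of 0.02 and SEPHS2 was the one called higher. QPRT was the highest of 9 genes of NAD synthesis in osimertinib vs untreated, at 0.21 ± 0.12 (n = 4), without being called, and the list had a median of 0.02.

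Among the genes inside the interval that were not on the list, TAOK2, a kinase upstream of the Hippo pathway, was at 0.61 ± 0.46 (n = 3, adjusted p = 0.00342) in osimertinib vs untreated and 0.45 ± 0.39 (n = 3, adjusted p = 0.00183) in erlotinib vs untreated, where its guides ran from -0.12 to 0.64. PPP4C, the catalytic subunit of protein phosphatase 4, stood out in 3 comparisons, at 0.79 ± 0.27 (n = 3, adjusted p = 0.00183) in erlotinib vs untreated, -0.44 ± 0.25 (n = 3, adjusted p = 0.000301) in untreated vs T0 and 0.49 ± 0.12 (n = 3, adjusted p = 0.000537) in erlotinib vs T0. It had 14.2 and 16.6 CPM in the untreated libraries, 28.7 and 24.4 under erlotinib and 28.1 and 27.3 under osimertinib. Both drugs were thus above untreated, and the L2FC of PPP4C in erlotinib vs osimertinib was 0.04. Like CDIPT, PPP4C was called lower without drug, and how far this raises its values against untreated cells was not tested. MAPK3, encoding the kinase ERK1, was within the range of the members at 0.25 ± 0.11 (n = 4) in osimertinib vs untreated.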

How the data were processed

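The authors deposited a table of raw read counts per guide for 8 libraries. Per the labels and methods, guides were amplified from genomic DNA and mapped to the TKOv3 library with 1 mismatch allowed (the submitters' notes name Bowtie 1.3.1). No column was left unused. Of 50 gene names that a spreadsheet had turned into amounts of money, 1 could not be restored and was left out.

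Guides in the lowest 5% by mean normalised count (below 45.9 reads) were removed, leaving 67531. All 8 libraries were fitted together with edgeR 4.0.16 (quasi-likelihood, TMM, 4 residual degrees of freedom) in R 4.3.3. Guide L2FC was collapsed to the gene median (at least 2 guides), minus the non-targeting median. Two-sided empirical p came from 10000 random samples of non-targeting guides of the same number (Python 3.11.15), where 0.0001 is the smallest possible, with Benjamini-Hochberg adjustment over 17761 genes. Errors are the SD between guides, which share libraries. CPM values were computed with edgeR, and intervals were not given for counting error.

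Gene order and neighbours came from RefSeq genes of GRCh38.p14, while the counts table names no build. Members and gene lists were chosen with earlier results of these data known. A gene was named where it was a member, where it stood out by the stated rule inside the interval, or where it was the lowest or highest called member of a pathway list. Alternatives were DESeq2 1.42.0, no filter on low counts, all targeting guides as reference, the mean over guides, limma 3.58.1 on gene by library, a replicate block and leaving out each library. On simulated counts with known changes the steps were tested and recovered the changed genes.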

Additional observations from a re-analysis of the deposited data

Results flagged for a closer look

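The response to both drugs differed directly for 8 members in erlotinib vs osimertinib (empirical p on edgeR values, adjusted over all genes, doses unequal). The L2FC was -0.93 for TBC1D10B, -0.44 for ZNF689, -0.32 for PRRT2, -0.27 for ITGAL, -0.26 for ZNF785, -0.24 for MVP, -0.23 for HIRIP3 and 0.46 for CDIPT. TBC1D10B, ZNF689 and CDIPT were also called against all targeting guides, each with an adjusted p of 0.0277. The guides of ZNF689 (SD 0.02), ZNF785 (SD 0.04), ITGAL (SD 0.05) and HIRIP3 (SD 0.07) lay close together, whereas those of MVP ran from -0.30 to 0.25.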

How the results depend on the processing

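The direction of the members' median was kept under all alternatives run, except that the median of untreated vs T0 was 0.10 against all targeting guides. That reference also gave medians of 0.18 in erlotinib vs T0 and 0.34 in osimertinib vs T0. Members called against all targeting guides, lower and higher, each with the share of all genes called, numbered 1 (2.87%) and 0 (0%) in untreated vs T0, 1 (0.614%) and 1 (1.32%) in erlotinib vs untreated, 0 (0.816%) and 1 (0.636%) in osimertinib vs untreated, 0 (2.25%) and 0 (0.0225%) in erlotinib vs T0, 0 (3.94%) and 1 (0.113%) in osimertinib vs T0, and 2 (0.0619%) were lower in erlotinib vs osimertinib. With limma on values of each gene in each library, 5 (40.3%) were lower and 0 (0.0225%) higher in untreated vs T0 (median -0.13), 0 (1.15%) lower and 5 (4.1%) higher in erlotinib vs untreated (median 0.13), 0 (2.65%) lower and 12 (3.68%) higher in osimertinib vs untreated, 4 (28.0%) lower and 2 (0.208%) higher in erlotinib vs T0 (median 0.012), 11 (0.704%) higher in osimertinib vs T0 and 2 (0.0732%) lower in erlotinib vs osimertinib. With no filter on low counts, 1 member (5.29%) was lower in erlotinib vs untreated, and the medians were 0.24 in osimertinib vs untreated and 0.17 in osimertinib vs T0. With the mean over guides the medians were 0.085 in erlotinib vs untreated and 0.24 in osimertinib vs untreated, where 13 members (2.54%) were higher. Leaving out 1 library gave 8 to 11 lower (46.0% to 52.4% of all genes) and 0 to 1 higher (0.124% to 0.203%) in untreated vs T0, 1 to 2 lower (2.53% to 4.66%) and 1 to 7 higher (3.35% to 7.74%) in erlotinib vs untreated (median 0.080 to 0.12), 0 to 1 lower (1.99% to 3.36%) and 7 to 18 higher (1.18% to 5.56%) in osimertinib vs untreated (median 0.21 to 0.25), 2 to 5 lower (39.0% to 49.6%) and 1 to 6 higher (0.411% to 0.726%) in erlotinib vs T0 (median 0.033 to 0.075), 12 to 17 higher (0.732% to 1.26%) in osimertinib vs T0 (median 0.15 to 0.19), and 2 to 5 lower (0.0507% to 0.884%) in erlotinib vs osimertinib. The counts of 0 come from the empirical test or limma as named, and the causes of these changes were not tested. Among the values of members that stood out, recomputed under each alternative, 149 kept their direction and call and 21 kept their direction but lost the call.

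Same-numbered libraries did not deviate together across genes (r from -0.01 to 0.01), so that the numbers do not pair the samples. With a replicate block, 12 members were lower in untreated vs T0, 23 higher in osimertinib vs untreated and 7 higher in erlotinib vs untreated, and none of 35 results changed its call. With 2 libraries per group, a library left out leaves a lone sample that is assumed to vary like the other groups. At medians of 445 to 549 reads per guide, depth limits the guides that were removed for low counts, among them 3 of the 4 guides of ALDOA.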
